A study of Mus musculus with 185 samples.

Results

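The genes described here are 10 that set how brain tissue takes up glucose into glycolysis, makes and clears lactate, and stores and breaks down glycogen. They were taken by name from the 57010 genes of the count table, and all 10 were found. They are the hexokinases Hk1 and Hk2, the glycolysis regulator Pfkfb3, the lactate dehydrogenase subunits Ldha and Ldhb, the glycogen phosphorylases Pygb and Pygm, the glycogen synthase Gys1, and the phosphatase subunits Ppp1r3c and Ppp1r3g. RNA came from the brains of 37 males of the inbred strain C57BL/6 J, obtained at 8 weeks of age. For 16 h, pairs of cage mates kept their chow, got a high-fat diet (HFD) or were fasted, with 3 cages and 6 mice for each diet. For 24 h, mice that lived alone kept their chow (9 mice) or were fasted (10 mice).

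Each mouse gave 5 libraries, 1 for each dissected area: both colliculi, the hippocampus, the hypothalamus, and the prefrontal cortex (16 h) or the zona incerta (24 h). The count table names the mouse of each column and not its region, so the counts of the 5 columns were added up and the mouse was the replicate. Values are given as CPM, the counts of a gene scaled to 1000000 counts of the mouse. Columns held from 2994 to 65973281 counts (median 17626610), and mice held from 57962237 to 161577364. 27 columns were low (under 1000000 counts, or under 16000 genes expected in a draw of 500000 counts), 4 at 16 h and 23 at 24 h, and they were kept in the sums. The authors report that a block of libraries of the single-housed mice, of both diets, had no detectable RNA. They sequenced it on a flowcell of its own and discarded it as defective. All 5 columns of each mouse were summed here, so that block is part of the sums. Leaving out the low columns follows the rule on counts and genes, and did not remove the whole block. Fasted mouse 1445 kept all 5 columns, although its hypothalamus library belongs to that block. A fit without exactly that block was not run. The submitters' notes state that the superior colliculus tubes of chow mouse 1423 and fasted mouse 1454 were exchanged, and the methods say that the sample records were corrected for it. Whether the headings of the count table follow that correction is not given in the sources used here. The labels mark 12 of 45 chow and 13 of 50 fasted libraries at 24 h as having failed alignment, among them the superior colliculus of 1 of 9 chow and 4 of 10 fasted mice, so the areas take different shares of the sums. Body weight changed by -17.1% to -21.4% in the mice fasted for 24 h and by -1.30% to -7.52% in those fasted for 16 h, and by -1.21% to 5.13% on chow over both times. Summed neuronal markers (8 genes) lay between 2955 and 4385 CPM in all mice. Summed hypothalamic markers (8 genes) fell as low as 4.65 CPM in 1 HFD mouse, and summed choroid plexus markers (5 genes) ranged from 18.0 to 4094 CPM. Mitochondrial genes took 3.78% to 4.98% of the counts at 16 h and at 24 h 8.57% to 16.7% on chow and 8.88% to 12.2% in the fasted mice. In bulk tissue, fewer cells of a type and less RNA per cell cannot be told apart.

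Glucose that enters a brain cell is phosphorylated by hexokinase and is then burned, turned to lactate or stored as glycogen. In the brain, glycogen is held mainly by astrocytes. Glycogen synthase adds glucose units to it and glycogen phosphorylase removes them, and both enzymes are switched by phosphorylation. The Ppp1r3 proteins hold protein phosphatase 1 on the glycogen particle, where it activates the synthase and inactivates the phosphorylase. Lactate dehydrogenase is a tetramer of A and B subunits that converts pyruvate and lactate into each other.

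The stretches before the start sites of 4 members are shown because the within-mouse balance of these pairs, Ppp1r3g to Ppp1r3c and Pygm to Pygb, differed between the diets at 24 h. Each is the 250 bases upstream of the canonical transcript (GENCODE vM39, GRCm39), 5′ to 3′ on the strand of the gene. Ppp1r3g is on the plus strand (chr13:36151586-36151835), Ppp1r3c on the minus strand (chr19:36714071-36714320), Pygm on the plus strand (chr19:6434179-6434428) and Pygb on the plus strand (chr2:150628386-150628635). The stretches of Ppp1r3g and Pygm lie wholly inside the annotated span of the gene, so other annotated transcripts start upstream of them. Capitals mark matches to the motifs searched.
Ppp1r3g: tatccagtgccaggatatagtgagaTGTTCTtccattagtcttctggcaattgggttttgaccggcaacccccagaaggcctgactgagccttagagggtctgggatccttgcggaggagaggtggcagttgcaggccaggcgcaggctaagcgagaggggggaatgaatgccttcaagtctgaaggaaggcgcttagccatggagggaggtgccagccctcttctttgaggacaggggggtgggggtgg
Ppp1r3c: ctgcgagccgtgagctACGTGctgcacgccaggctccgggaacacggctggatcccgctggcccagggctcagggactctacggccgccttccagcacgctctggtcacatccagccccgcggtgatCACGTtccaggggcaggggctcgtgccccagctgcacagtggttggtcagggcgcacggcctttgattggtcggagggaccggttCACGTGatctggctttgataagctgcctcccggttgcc
Pygm: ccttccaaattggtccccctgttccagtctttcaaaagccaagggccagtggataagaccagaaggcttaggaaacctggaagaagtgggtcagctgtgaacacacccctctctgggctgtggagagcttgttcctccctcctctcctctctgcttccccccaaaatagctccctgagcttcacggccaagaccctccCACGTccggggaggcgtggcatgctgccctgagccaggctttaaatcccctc
Pygb: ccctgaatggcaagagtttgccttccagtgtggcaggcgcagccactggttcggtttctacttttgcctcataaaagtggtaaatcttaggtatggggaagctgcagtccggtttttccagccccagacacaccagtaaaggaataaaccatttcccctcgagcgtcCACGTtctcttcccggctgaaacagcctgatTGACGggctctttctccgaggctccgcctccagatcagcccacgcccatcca

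The 7 motifs searched on both strands were the glucocorticoid receptor core AGAACA and its full site (GNACA and TGTNC with 3 bases between), the forkhead box O site TGTTTAC, the cAMP response element TGACGTCA and its core TGACG, the hypoxia response core ACGTG, and the E-box CACGTG. The core TGACG lies within the full element, and ACGTG lies within CACGTG. The stretch before Ppp1r3g held AGAACA once, on the opposite strand, from 225 to 220 bases before the start. That motif was in 14.3% of 21770 stretches of the same length and in 1 of the 10 members. The stretch before Ppp1r3c held ACGTG at 3 positions, 1 of them within a CACGTG that ran from 38 to 33 bases before the start. The stretch before Pygm held ACGTG once, on the opposite strand from 52 to 48 bases before the start. The stretch before Pygb held ACGTG on the opposite strand (83 to 79) and TGACG (52 to 48). Among all stretches, 17.0% held ACGTG, 18.0% held TGACG and 6.26% held CACGTG, and 6 of the 10 members held ACGTG. The full glucocorticoid receptor site (0.299% of all stretches) and the forkhead box O site (2.72%) were in 0 of the 10 members. The cAMP response element (1.70%) was before Ldha. A match describes letters in this window and shows no binding.

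On GRCm39, the members on the plus strand were Ldha at chr7:46490899-46505061, Pygb at chr2:150628628-150673685, Pygm at chr19:6430569-6448538, Gys1 at chr7:45084175-45106058 and Ppp1r3g at chr13:36142822-36154371. Those on the minus strand were Hk1 at chr10:62104621-62215687, Hk2 at chr6:82699740-82751469, Pfkfb3 at chr2:11476244-11558888, Ldhb at chr6:142435672-142454586 and Ppp1r3c at chr19:36708523-36714070. Levels of different genes were compared per kilobase of annotated exon. In the 16 h chow mice, Ldhb was the highest member at 38.7 ± 2.34 CPM per kb (SD, n = 6), above Hk1 at 31.1 ± 1.15 CPM per kb. Lengths are those of all annotated exons joined. Pygb at 23.3 ± 1.60 and Ldha at 22.4 ± 1.39 came next with overlapping ranges. Ppp1r3c at 13.6 ± 0.995 and Pygm at 12.3 ± 1.35 CPM per kb also overlapped. Below them stood Pfkfb3 at 6.66 ± 1.00, Gys1 at 2.68 ± 0.128, Ppp1r3g at 1.08 ± 0.0867 and Hk2 at 0.684 ± 0.0662 CPM per kb (SD, n = 6 each), and the ranges of these 4 did not overlap. The brain-type isoforms Hk1 and Pygb were thus above Hk2 and Pygm in every 16 h chow mouse. In the 24 h chow mice the order was the same at the top, with Ldhb at 56.5 ± 8.30 and Hk1 at 29.1 ± 2.56 CPM per kb (SD, n = 9). Pygb, Ldha, Pygm and Ppp1r3c followed, each overlapping its neighbour, and Ppp1r3g (0.773 ± 0.152) overlapped Hk2 (0.619 ± 0.0975). Part of this order turned with the length used. By the canonical transcript, Ldhb stayed highest at 114 ± 6.88 CPM per kb in the 16 h chow mice (SD, n = 6), but Ldha (66.8 ± 4.16) came before Hk1 (63.8 ± 2.36) and Pygb (60.4 ± 4.14), each overlapping its neighbour, and Pygm (16.1 ± 1.78) before Ppp1r3c (13.6 ± 0.995). At 24 h on chow, Ldhb was again highest and Hk1 then overlapped Pygb. The studies differ in 1 of 5 regions, in housing, in sequencing run and read length, and in the hour at which they began. Outside the hypothalamus, the hemisphere was chosen at random at 16 h and was the left at 24 h. These differences cannot be told apart in these levels. Of the 31-base windows of the Ldha transcript, 74.3% have another copy in the genome, and of Ldhb 39.5%, against 0% to 6.49% for the other members. The windows are shorter than the paired reads, so these shares can overstate the reads with several places. The levels of both lactate dehydrogenase genes are uncertain where such reads were dropped. On the opposite strand, other annotated genes cover 13.8% of the exon bases of Ldha, 13.0% of Gys1 and 4.80% of Hk1.

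**Figure D1:**
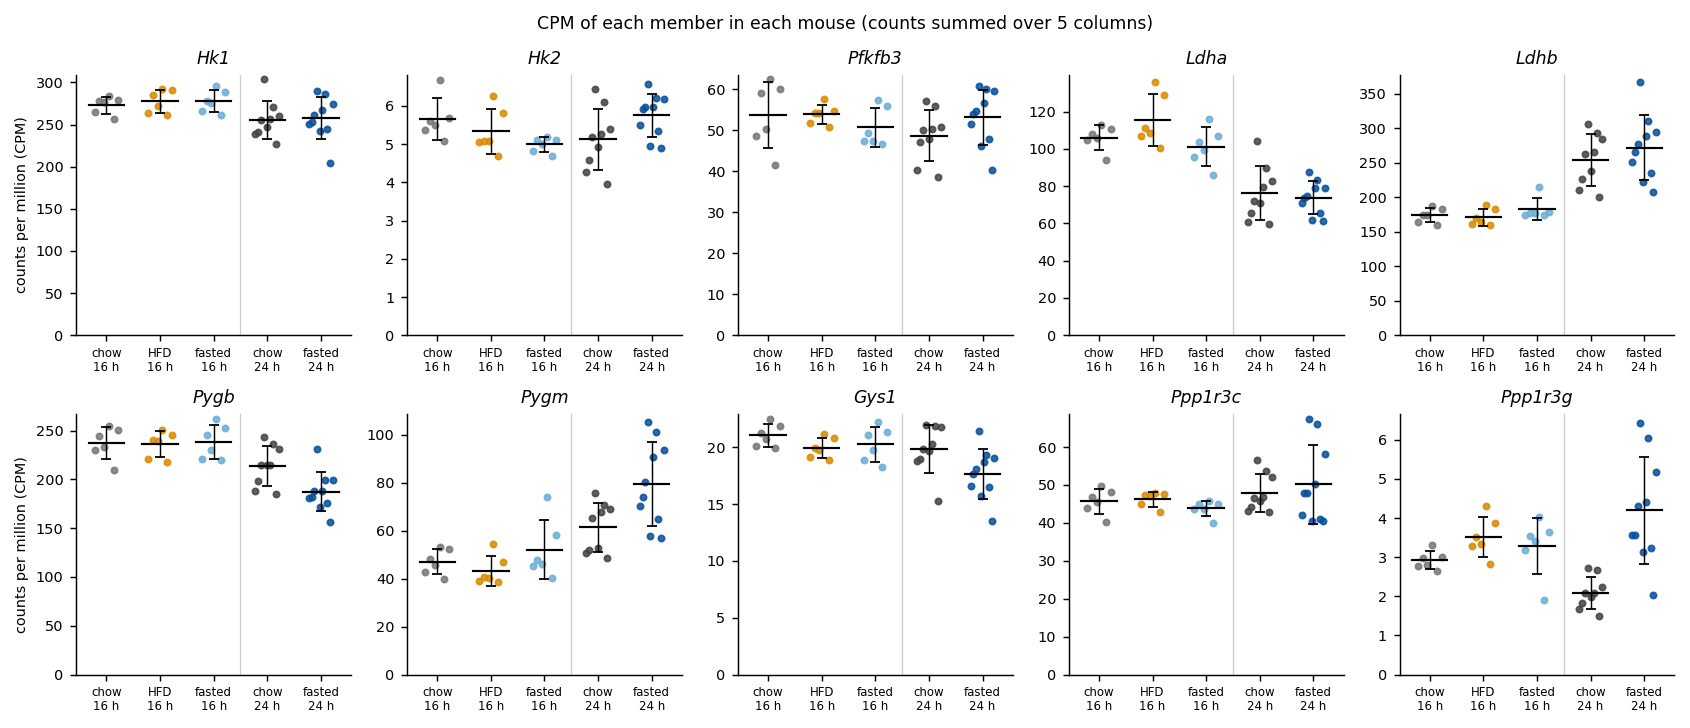
CPM (counts scaled to 1000000 per mouse, axes from 0) of each member in each mouse, with 1 point per mouse, the group mean as a line and the SD as a bar, for the 16 h groups (n = 6 each) and the 24 h groups (n = 9 and 10). Ppp1r3g lay above the highest 24 h chow mouse in 9 of 10 mice fasted for 24 h, while the diets overlapped in every panel.

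Fasting for 24 h was compared with chow to ask which of these genes respond to the longer loss of food. 2 of the 10 members passed the test, and both were higher: Ppp1r3g by 2.08-fold and Pygm by 1.35-fold. Pygm stood close to the threshold and was called in 12 of 28 alternative fits. The difference is fitted on the log2 scale, fasted minus chow, with its standard error (SE). The other 8 did not pass the test (edgeR quasi-likelihood test, Benjamini-Hochberg adjusted p under 0.05 over all 29011 genes tested). Over all genes, 11.4% were called, 5.78% as higher and 5.62% as lower. The members were chosen with earlier results of these data known, so their share is not a test of the set. An unadjusted p under 0.05 was found for 5 of the 10 members and for 24.2% of all genes. The median absolute log2 difference was 0.14 over the members and 0.13 over all genes. The groups overlapped in CPM for all 10 members, and 1.3% of all genes had groups that did not overlap. The number of genes called over all was 3307 (1676 higher and 1631 lower), against 837 (539 and 298) when each column had equal weight and 3105 (882 and 2223) with equal weight and without the low columns.

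Ppp1r3g encodes a glycogen-targeting subunit of protein phosphatase 1. In the 24 h chow mice it lay between 1.496 and 2.71 CPM with a median of 2.08, and in the fasted mice between 2.04 and 6.42 CPM with a median of 3.95. 9 of the 10 fasted mice stood above the highest chow mouse, and fasted mouse 1425, at 2.04 CPM, stood below the chow median. Mean levels were 2.08 ± 0.410 (SD, n = 9) and 4.19 ± 1.37 CPM (SD, n = 10), and the fitted log2 difference was 1.06 (SE 0.19, adjusted p = 0.000875 by edgeR's quasi-likelihood test). The interval of 2 SE each way ran from 1.59-fold to 2.71-fold. Ppp1r3g was called in all 28 alternative fits at 24 h, with log2 differences from 0.80 to 1.14 and adjusted p from 2.32e-06 to 0.0251. With the 23 low columns left out it was 1.06 (adjusted p = 0.00092), and without mice 1423 and 1454 it was 1.10 (adjusted p = 0.00214).

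Ppp1r3c, the subunit also called protein targeting to glycogen, which brings the phosphatase to glycogen in astrocytes, was the more abundant of this pair. It lay between 42.7 and 56.7 CPM on chow (median 46.5) and between 40.5 and 67.4 CPM in the fasted mice (median 47.9). Above the highest chow mouse stood 3 fasted mice, and 4 stood below the lowest, so the fasted group was wider on both sides. The fit gave a log2 difference of 0.12 (SE 0.12, adjusted p = 0.602 by edgeR), with an interval from 0.920-fold to 1.29-fold. The ratio of Ppp1r3g to Ppp1r3c counts within a mouse does not depend on how the sum of that mouse is scaled. It does depend on the depth of each column in the sum, as Ppp1r3g varied more over the columns than Ppp1r3c. The log2 ratio ran from -4.96 to -4.02 on chow and from -4.30 to -2.90 in the fasted mice. All 10 fasted mice stood above the chow median. The mean log2 ratio differed by 0.91 (exact permutation test, two-sided, p = 0.000249, adjusted p = 0.00273 over 12 tests of ratios).

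Pygm is the muscle-type glycogen phosphorylase, which in the brain is made by astrocytes, and Pygb is the brain type. Pygm lay between 48.8 and 75.6 CPM on chow (median 65.5) and between 56.9 and 105 CPM in the fasted mice (median 77.3). Of the 10 fasted mice, 5 stood above every chow mouse, and the other 5 lay within the chow range. The fitted log2 difference was 0.43 (SE 0.14, adjusted p = 0.0461 by edgeR's quasi-likelihood test), or 1.35-fold with an interval from 1.12-fold to 1.63-fold. The call stood close to the threshold. It was lost in 13 of the 19 fits that each left out 1 mouse, without chow mice 1422, 1431, 1432, 1442, 1443 and 1452 and without fasted mice 1424, 1425, 1433, 1434, 1435, 1444 and 1455, where the log2 difference ranged from 0.35 to 0.49 over the 19 fits and the adjusted p from 0.0188 to 0.0919. It was also lost without the low columns (0.40, adjusted p = 0.0684), without a filter on low counts (0.43, adjusted p = 0.0574), and with equal weight per column without the low ones (0.33, adjusted p = 0.140, limma).

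Pygb moved the other way without passing the test. It lay between 184.8 and 244 CPM on chow (median 215) and between 156 and 231 CPM in the fasted mice (median 185.02). Below the lowest chow mouse stood 5 fasted mice, and 9 stood below the chow median. Its log2 difference was -0.14 (SE 0.06, adjusted p = 0.190 by edgeR). The log2 ratio of Pygm to Pygb ran from -2.32 to -1.47 on chow and from -1.71 to -0.78 in the fasted mice, and all 10 fasted mice stood above the chow median. The mean log2 ratio differed by 0.55, or 1.47-fold (exact permutation test, two-sided, p = 0.000455, adjusted p = 0.00273). Over the 19 sets that left out 1 mouse, this difference ranged from 0.49 to 0.60 with an adjusted p of at most 0.00686, and that of Ppp1r3g to Ppp1r3c from 0.83 to 0.99 with an adjusted p of at most 0.00548.

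**Figure D2:**
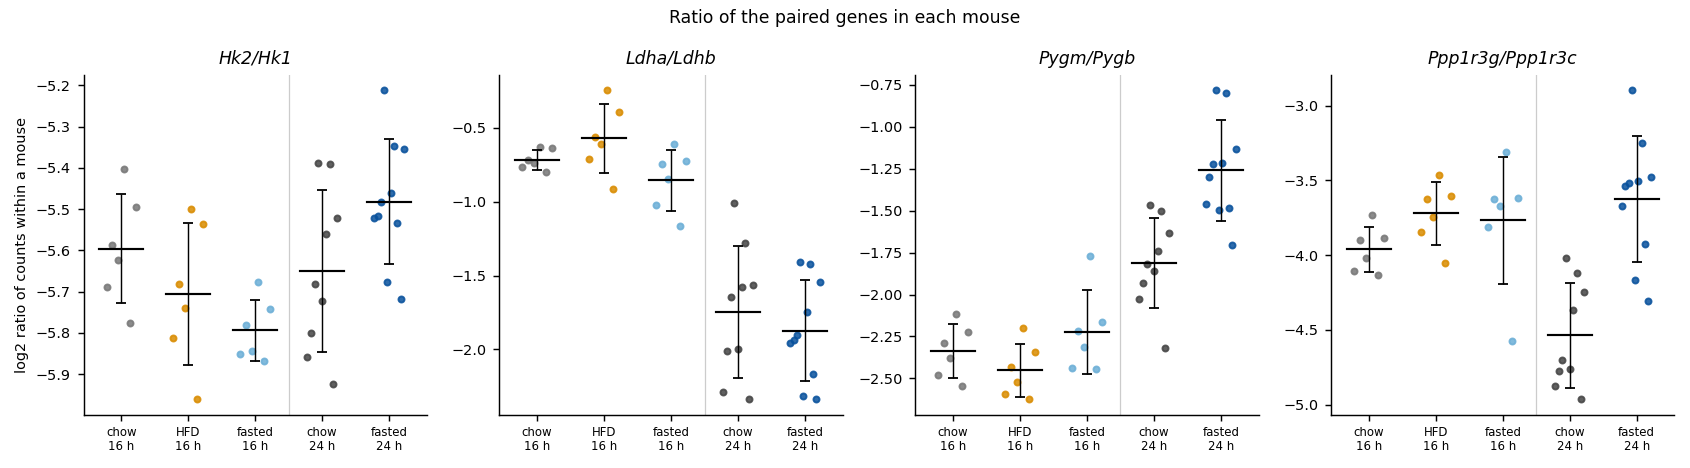
Log2 ratio of counts within a mouse for the 4 pairs of related genes, with 1 point per mouse, the group mean as a line and the SD as a bar (n = 6 per 16 h group, 9 and 10 at 24 h). The mice fasted for 24 h stood higher than 24 h chow mice for Pygm/Pygb (difference 0.55) and Ppp1r3g/Ppp1r3c (difference 0.91), and the diets overlapped for all 4 pairs.

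Gys1, the glycogen synthase of brain and muscle, lay between 15.3 and 21.9 CPM on chow (median 19.8) and between 13.6 and 21.4 CPM in the fasted mice (median 17.9). Only 1 fasted mouse stood above the chow median. Fasting against chow gave -0.11 on the log2 scale (SE 0.06, adjusted p = 0.303 by edgeR), with an interval from 0.845-fold to 1.01-fold.

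Hk2, the hexokinase typical of insulin-responsive tissue, was the least abundant member per length. It lay between 3.96 and 6.44 CPM on chow (median 5.19) and between 4.89 and 6.58 CPM in the fasted mice (median 5.95), and 8 of 10 fasted mice stood above the chow median. Its log2 difference was 0.22 (SE 0.08, adjusted p = 0.0998 by edgeR), and it passed only without chow mouse 1432 (adjusted p = 0.0428). Hk1, the main hexokinase of the brain, had means of 256 ± 22.4 CPM on chow (SD, n = 9) and 258 ± 25.0 CPM in the fasted mice (SD, n = 10). For Hk1 the log2 difference was 0.06 (SE 0.06), with an interval from 0.956-fold to 1.14-fold. The log2 ratio of Hk2 to Hk1 differed by 0.17 (exact permutation test, two-sided, p = 0.0537, adjusted p = 0.129).

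Pfkfb3 makes fructose 2,6-bisphosphate, the activator of phosphofructokinase, and so sets the pace of glycolysis. It lay between 38.7 and 57.1 CPM on chow (median 50.2) and between 40.3 and 60.8 CPM in the fasted mice (median 54.4), with 7 of 10 fasted mice above the chow median. Its log2 difference was 0.18 (SE 0.08, adjusted p = 0.165 by edgeR), with an interval from 1.01-fold to 1.27-fold.

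The lactate dehydrogenase subunits did not pass. Ldha, the subunit typical of tissue that makes lactate, lay between 59.9 and 105 CPM on chow (median 72.2) and between 61.5 and 87.8 CPM in the fasted mice (median 74.2). Its log2 difference was 0.00 (SE 0.10, adjusted p = 0.986 by edgeR), with an interval from 0.878-fold to 1.15-fold, and its sign turned in several alternatives. Ldhb, the subunit typical of tissue that burns lactate, lay between 201 and 306 CPM on chow (median 263) and between 207 and 367 CPM in the fasted mice (median 271). On the log2 scale they differed by 0.15 (SE 0.12, adjusted p = 0.462). The log2 ratio of Ldha to Ldhb differed by -0.13 (exact permutation test, two-sided, p = 0.488).

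**Figure D3:**
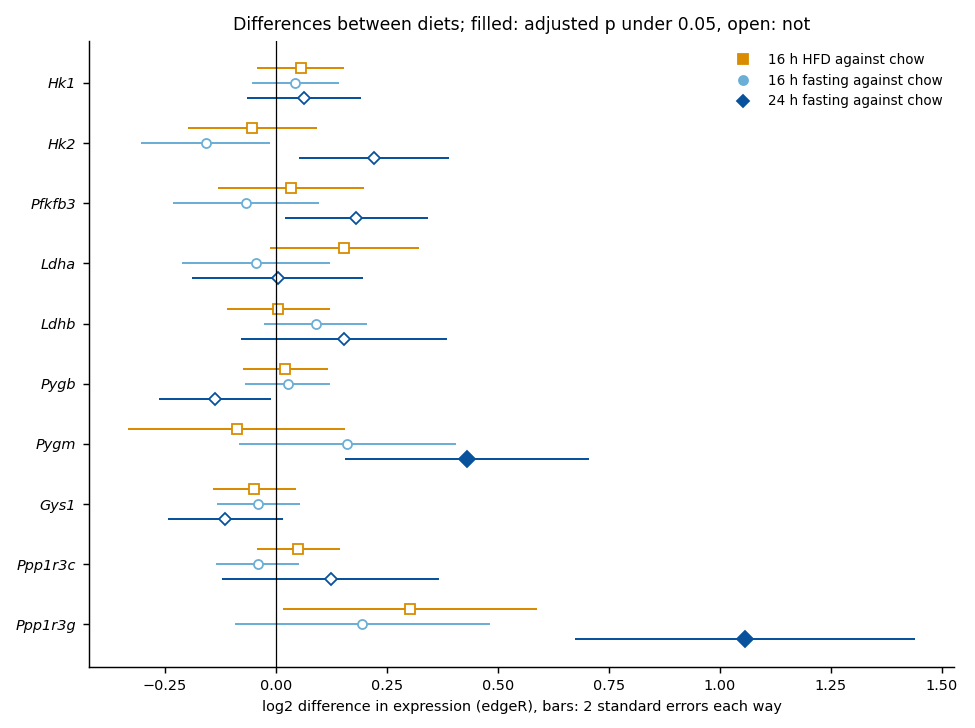
Log2 difference of each member (edgeR), with bars of 2 standard errors each way, for 24 h fasting, 16 h fasting and 16 h HFD, each against chow of the same study. Filled symbols passed the test, which were Ppp1r3g (1.06) and Pygm (0.43) at 24 h.

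At 16 h, 3 diets were set against each other to ask what a shorter fast or 16 h of HFD do to the same genes. Fasting and HFD were compared with the same 6 chow mice, so their differences are not independent, and 2 mice shared each cage. For fasting against chow, 0 of the 10 members passed (lowest adjusted p = 0.649), with 0.0% called over all 29746 genes. An unadjusted p under 0.05 was found for 1 of 10 members and 7.62% of all genes, and 0.289% of all genes had groups that did not overlap. For HFD against chow, 0 of 10 passed (lowest adjusted p = 0.508), with 0.0% called over all genes and 1 of 10 members against 9.8% of genes at an unadjusted p under 0.05, and 0.662% of genes did not overlap. For fasting against HFD, 0 of 10 passed (lowest adjusted p = 0.362), with 0.219% called over all genes (0.141% higher, 0.0773% lower). Unadjusted, it was 1 of 10 members against 11.4% of genes, and 1.09% of genes did not overlap. DESeq2, the other count test, called 19, 5 and 354 genes in these 3 comparisons and 0 of the members. The groups overlapped for all 10 members in each of the 3 comparisons.

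The member with an unadjusted p under 0.05 after the 16 h fast was Hk2. It lay between 5.08 and 6.68 CPM on chow (median 5.55), between 4.68 and 6.27 CPM on HFD (median 5.08) and between 4.70 and 5.19 CPM in the fasted mice (median 5.06). All 6 fasted mice stood below the chow median. The log2 difference between fasted and chow mice was -0.16 (SE 0.07, adjusted p = 0.649 by edgeR). The ratio of Hk2 to Hk1 gave a log2 difference of -0.20 (exact permutation test, two-sided, p = 0.0130, adjusted p = 0.0519). That test exchanged single mice, and the smallest p that 6 against 6 mice can give is 0.00216. Diet was given by cage, and exchanging whole cages could not reach so small a p. The p-values of the 16 h ratios take cage mates as independent, so they cannot decide whether a ratio differed with diet. With single mice exchanged, the ratio of Hk2 to Hk1 passed without chow mouse 4 (-0.23, adjusted p = 0.0260) or without fasted mouse 7 (-0.22, adjusted p = 0.0346). With equal weight per column it was 0.09.

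For HFD the member was Ppp1r3g. It lay between 2.66 and 3.32 CPM on chow (median 2.89), between 2.82 and 4.30 CPM on HFD (median 3.43) and between 1.91 and 4.02 CPM in the fasted mice (median 3.48). Above every chow mouse stood 4 HFD mice and 4 fasted mice, while fasted mouse 9 was below every chow mouse. The log2 difference from chow was 0.30 on HFD (SE 0.14, adjusted p = 0.508 by edgeR) and 0.20 after the fast (SE 0.14, adjusted p = 0.773). The ratio of Ppp1r3g to Ppp1r3c differed by 0.24 on HFD (exact permutation test, adjusted p = 0.129) and by 0.19 after the fast (adjusted p = 0.397). With single mice exchanged, it passed on HFD without mouse 14 (0.31, adjusted p = 0.0312) and after the fast without mouse 9 (0.35, adjusted p = 0.0260). These p-values also take cage mates as independent.

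Between the fast and HFD the member was Ldha, at 101 ± 10.4 CPM in the fasted mice and 116 ± 13.9 CPM on HFD (SD, n = 6 each), with 106 ± 6.60 CPM on chow. Of the fasted mice, 3 lay below every HFD mouse, and the log2 difference was -0.20 (SE 0.08, adjusted p = 0.362 by edgeR), while HFD against chow gave 0.15 (SE 0.08, adjusted p = 0.544). Pygm lay between 40.0 and 53.1 CPM on chow, between 38.4 and 54.4 CPM on HFD and between 40.4 and 74.2 CPM in the fasted mice, the highest of which was mouse 11. Its log2 difference from chow was 0.16 (SE 0.12, adjusted p = 0.779) after the fast and -0.09 (SE 0.12, adjusted p = 0.830) on HFD. The other 6 members had log2 differences from chow between -0.07 and 0.09 after the fast and between -0.05 and 0.06 on HFD. Hk1, Pygb, Gys1 and Ppp1r3c had SE of 0.05 in both comparisons. For Gys1, the interval after the 16 h fast ran from 0.912-fold to 1.04-fold, and for Ppp1r3c from 0.911-fold to 1.04-fold.

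Whether fasting acted differently at 24 h and at 16 h was tested directly, in 1 fit of all 37 mice. The difference passed for 0 of the 10 members and for 1.7% of 30849 genes (0.956% higher and 0.739% lower). An unadjusted p under 0.05 was found for 3 of 10 members and 10.8% of all genes. Ppp1r3g had the largest difference, 0.87 on the log2 scale (SE 0.26, adjusted p = 0.0968 by edgeR), and Hk2 the next, 0.38 (SE 0.12, adjusted p = 0.104). For Pygm it was 0.28 (SE 0.20, adjusted p = 0.738). Ppp1r3g passed without fasted mouse 1425 (adjusted p = 0.0213), and Hk2 passed without chow mouse 1432 (adjusted p = 0.0382). The fasting effects of the studies on the called members were thus not shown to differ. Length and starting hour of the fast, housing, hemisphere, 1 region, sequencing run and read length cannot be told apart in this test.

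Around the members stand 91 genes in 8 lists of glucose and glycogen metabolism, the members included. At 24 h, 9 of the 91 were called higher and 5 lower, with 5.78% and 5.62% over all genes. Together 14 were called (15.4%, with 11.4% over all genes). The lists were chosen with earlier results of these data known, so this share is not a test of them. Of the hexokinases and glycolytic enzymes, 0 of 18 rose and 1 fell, with a median log2 difference of 0.08 (all genes 0.00). That gene was Hk3, a hexokinase of myeloid cells, at 1.71 ± 0.275 CPM on chow (SD, n = 9) and 1.17 ± 0.218 CPM in the fasted mice (SD, n = 10), a log2 difference of -0.50 (adjusted p = 0.00268 by edgeR). Of 6 microglial markers, 3 fell and 3 did not pass, with 5.62% of all genes called lower. Their summed level was 127 to 177 CPM on chow and 106 to 169 CPM in the fasted mice. Their part in the Hk3 difference was not tested.

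Of the genes that control glycolysis and pyruvate use, 2 of 15 rose and 0 fell, with 5.78% of all genes called higher. Pdk4 and Pdk2 are kinases that switch off pyruvate dehydrogenase. Pdk4 lay between 6.13 and 9.67 CPM on chow and between 13.5 and 33.6 CPM in the fasted mice, without overlap, a log2 difference of 1.56 (SE 0.17, adjusted p = 2.48e-06 by edgeR). Pdk2 differed by 0.48 (SE 0.08, adjusted p = 0.000218). At 16 h, Pdk4 lay between 7.44 and 9.06 CPM on chow and between 8.05 and 9.95 CPM in the fasted mice. The fasting effect differed between 24 h and 16 h for Pdk4 (1.43, adjusted p = 3.59e-05) and Pdk2 (0.45, adjusted p = 0.0221).

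Of the genes of glucose entry, 2 of 7 rose and 0 fell, with 5.78% of all genes called higher. Slc2a1, the glucose transporter of the blood-brain barrier and of astrocytes, lay between 57.3 and 89.4 CPM on chow and between 99.9 and 165 CPM in the fasted mice, without overlap, a log2 difference of 0.94 (SE 0.09, adjusted p = 1.10e-06 by edgeR). Slc2a4, the insulin-responsive transporter, lay between 1.43 and 2.43 CPM on chow and between 2.69 and 6.99 CPM in the fasted mice, a log2 difference of 1.18 (SE 0.15, adjusted p = 1.89e-05). Of 6 endothelial markers, 3 fell and 3 did not pass, with 5.62% of all genes called lower. Their summed level was 198 to 314 CPM on chow and 156 to 252 CPM in the fasted mice. The difference of the Slc2a1 effect between 24 h and 16 h was 0.70 (adjusted p = 0.00133).

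Of the lactate genes, 0 of 9 rose and 1 fell, with 11.4% of all genes called, 5.62% as lower. Slc16a1, a carrier of lactate and ketone bodies across the cell membrane, lay between 38.3 and 61.6 CPM on chow and between 29.3 and 50.5 CPM in the fasted mice, a log2 difference of -0.43 (SE 0.09, adjusted p = 0.00378 by edgeR). Its effect differed between 24 h and 16 h (-0.53, adjusted p = 0.00795).

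Of the genes of glycogen synthesis, 2 of 8 rose and 1 fell, with 5.78% of all genes called higher and 5.62% lower. The median log2 difference of the list was 0.00. Pgm1, which moves the phosphate between positions of glucose phosphate, rose by 0.53 (SE 0.10, adjusted p = 0.00127 by edgeR), and Ugp2, which makes the UDP-glucose that the synthase uses, fell by 0.27 (SE 0.08, adjusted p = 0.0375). Gys2, the liver glycogen synthase, was near the floor of detection, with 0.107 ± 0.0413 CPM on chow and 0.180 ± 0.0684 CPM in the fasted mice, and differed by 0.84 (SE 0.26, adjusted p = 0.0381).

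For the lists of this paragraph, the shares over all genes at 24 h were 5.78% called higher and 5.62% lower. Of the genes of glycogen breakdown, 2 of 10 rose and 1 fell. Beside Pygm, the catalytic subunits of phosphorylase kinase went opposite ways: Phkg2, the liver and testis form, by 0.16 (SE 0.04, adjusted p = 0.0128 by edgeR) and Phkg1, the muscle form, by -0.49 (SE 0.04, adjusted p = 3.53e-07). Phkg1 lay between 15.2 and 18.1 CPM on chow and between 9.94 and 13.5 CPM in the fasted mice, without overlap, and its effect differed between 24 h and 16 h (-0.47, adjusted p = 2.64e-05). Of the glycogen-targeting subunits and glycogen regulators, 1 of 15 rose, which was Ppp1r3g, and 0 fell. Of the hypoxia-inducible genes outside glycolysis, 0 of 9 rose and 1 fell, the vascular growth factor Vegfa by 0.29 (SE 0.07, adjusted p = 0.00581). At 16 h, 0 of the 91 genes passed in any of the 3 comparisons, and 10, 9 and 12 had an unadjusted p under 0.05 (fasting against chow, HFD against chow, fasting against HFD), where the shares over all genes were 7.62%, 9.8% and 11.4%. At 24 h it was 33 of the 91, with 24.2% over all genes.

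**Figure D4:**
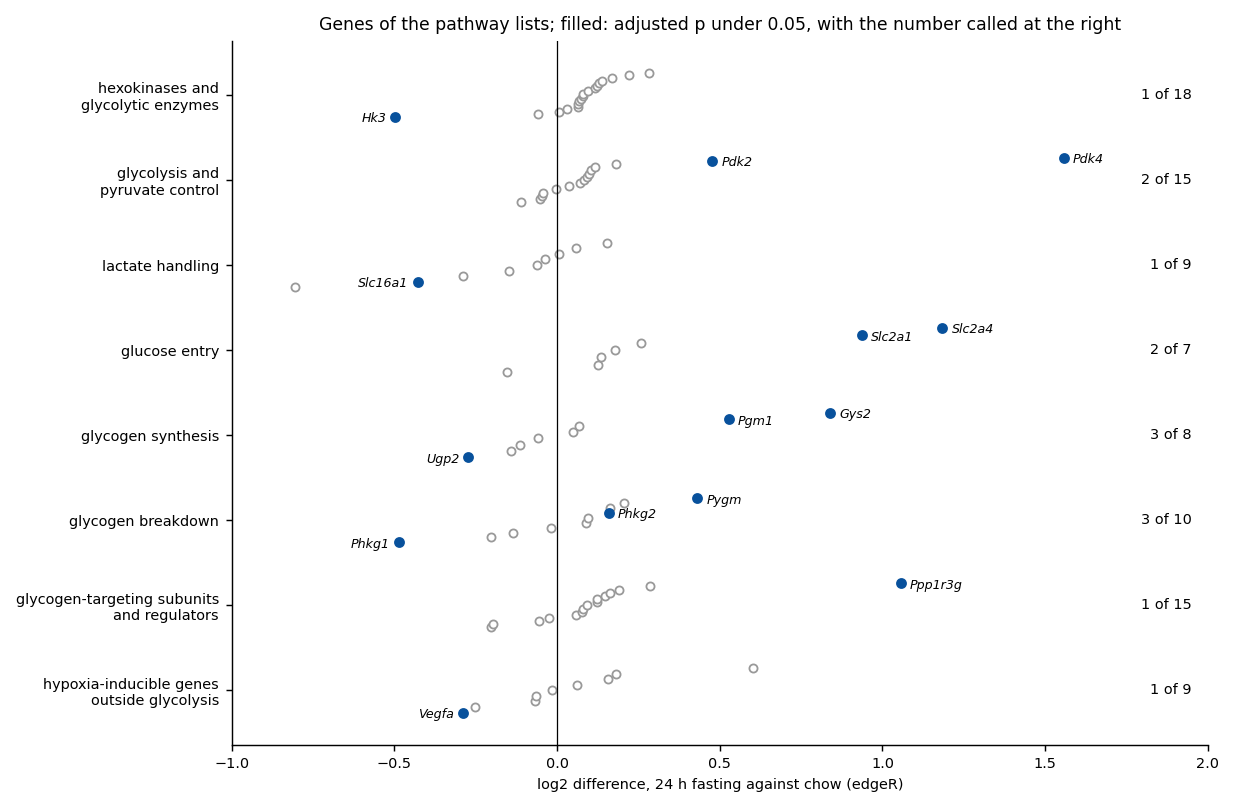
Log2 difference of 24 h fasting against chow (edgeR) for the 91 genes of the 8 lists, 1 point per gene, filled where the adjusted p was under 0.05 and with the number called at the right. The called genes ran from Hk3 at -0.50 to Pdk4 at 1.56, and most other points lay close to 0.

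Astrocytes hold most of the glycogen of the brain, so their markers were set beside Ppp1r3g and Pygm. Over all genes at 24 h, 5.78% were called higher and 5.62% lower. Of 8 astrocyte markers, 1 rose and 2 fell, and the other 5 did not pass. Their summed level was 3688 to 4588 CPM on chow and 3719 to 5225 CPM in the fasted mice. Pygm is also abundant in skeletal muscle. The 5 muscle markers summed to 3.05 to 5.77 CPM on chow and 3.07 to 4.45 CPM in the fasted mice, and 1 of them fell. The part of cell types in the differences was not tested.

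The columns of a mouse hold different brain areas, and members differed in how far their CPM spread over them. Over the columns that were not low, the highest was a median of 1.32 times the lowest within a mouse for Hk1, 1.38 times for Ppp1r3c and 1.48 times for Gys1. It was 4.48 times for Pygm and 4.99 times for Ppp1r3g, the members called at 24 h. For Ldha, Hk2, Ldhb, Pfkfb3 and Pygb it lay between 1.83 and 2.28 times. In the 24 h chow mice, Pygm ran from 14.1 to 112 CPM over 34 such columns (median 62.1), and in the fasted mice from 18.4 to 150 CPM over 38 columns (median 85.9). Ppp1r3g ran from 0.726 to 4.74 CPM on chow (median 1.57) and from 0.729 to 7.55 CPM in the fasted mice (median 3.82). Columns were not assigned to regions, so this spread is given with no test. Superior colliculus libraries were marked as having failed alignment in 4 fasted mice and 1 chow mouse at 24 h. Another 1 of the fasted group was marked as an outlier in the authors' principal component analysis. The part of the mix of areas in the differences of both genes was not tested. Without the low columns, the log2 difference was 1.06 for Ppp1r3g (adjusted p = 0.00092) and 0.40 for Pygm (adjusted p = 0.0684).

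The genes whose pattern over mice was most like that of Ppp1r3g were ranked by Pearson's r over 37 mice, after the mean of each diet and study was removed from log2 CPM. The 5 highest of all genes were Kirrel2 (0.76), Klf9 (0.73), Zfp131 (0.71), Dcaf6 (0.71) and Zfp365 (0.71). Among the other members, r ran from -0.74 for Pygb to 0.27 for Ppp1r3c, and it was -0.23 for Pygm. The points share library depth and the mix of areas in a sum, and no test was made.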

How the data were processed

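The authors demultiplexed reads with bcl2fastq 2.20.0 and aligned them to GRCm39 with STAR 2.7.3a, whose gene quantification gave the raw counts per Ensembl gene that were deposited for 185 columns. Libraries used a directional kit with rRNA depletion. The annotation release and the strand setting of the counts are not given in the sources used here. Deposited counts were not normalized.

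Columns were assigned to mice by their headings and summed over 5 columns. Genes were named with GENCODE vM39 (56310 of 57010 had a symbol), and the 10 members were matched by symbol. Tests used edgeR 4.0.16 in R 4.3.3 (filterByExpr, TMM, glmQLFit and glmQLFTest, Benjamini-Hochberg, adjusted p under 0.05), with 1 fit per study and 1 fit of all mice for the difference between studies. SE is the log2 difference divided by the square root of F. Ratios took counts plus 1 and exact permutation tests (scipy 1.17.1, Python 3.11.15). Alternatives were DESeq2 1.42.0 (sum of counts over 10), median-of-ratios size factors, no filter, no low columns, equal weight per column (limma 3.58.1, log2 CPM with a prior count of 2), no mitochondrial genes, cage sums, covariates for round of cages or clock time, and each mouse left out. Equal weight without low columns, and ratios with a mouse left out, were added after seeing the data. Scripts were tested on simulated data. Named genes are all members, up to 4 called genes per list and direction by p, and the 5 genes most like the member of lowest p at 24 h. The members and lists were chosen with earlier results of these data known. Mice of a cage are not independent, so 16 h p-values rest partly on shared cages. The permutation tests of ratios exchanged single mice, although diet was given by cage at 16 h.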

Additional observations from a re-analysis of the deposited data

Results flagged for a closer look

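In 50 groups of member and diet, a highest or lowest mouse stood apart in 3, and chance gives about 1 in 20. After the 16 h fast, Ldhb was 215 CPM in mouse 11, with the next mouse at 179 CPM and a median of 177 CPM. In the 24 h chow group, Gys1 was 15.3 CPM in mouse 1442, with the next at 18.8 CPM and a median of 19.8 CPM. After the 16 h fast, Ppp1r3c was 40.0 CPM in mouse 12, with the next at 43.6 CPM and a median of 44.3 CPM. Columns that were not low numbered 3 in mouse 1442 and 4 each in mice 11 and 12. Mouse 1442 also had the highest mitochondrial share of all mice, 16.7%. The part of library quality in these values was not tested.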

How the results depend on the processing

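No animal number was shared between groups, so no mice were paired. The round of cages (start order within a diet) as a covariate at 16 h called 0 members and 0, 0 and 89 genes for fasting against chow, HFD against chow and fasting against HFD. Ppp1r3g at 24 h was called in all 28 alternative fits, and both 24 h ratio calls held in every alternative run. The 2 members called at 24 h became 1 (Ppp1r3g) without low columns (Pygm 0.40), without a filter (Pygm 0.43) and with equal weight without low columns (Pygm 0.33), and ranged from 1 to 2 with a mouse left out. The cause of these changes was not tested.

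With equal weight per column, 837 genes were called at 24 h, 0 for fasting against HFD and 157 for the difference between studies. That fit shifted the median of all genes by -0.25 for 16 h fasting against chow, -0.26 for fasting against HFD and 0.27 for the difference between studies. It includes a column of a 16 h fasted mouse with 2994 counts. In it, signs turned at 24 h for Ldha (-0.13), Gys1 (0.087) and Ppp1r3c (-0.0035), after the 16 h fast for Ldhb (-0.33), Ppp1r3g (-0.22) and the ratio of Hk2 to Hk1 (0.091), on HFD for Ldhb (-0.071), between fasting and HFD for Ldhb (-0.26) and Gys1 (-0.73), and between studies for Gys1 (0.88). With equal weight without low columns, 133 genes were called for fasting against HFD, and signs turned for Hk1 (-0.028) and Ldha (-0.24) at 24 h, Hk1 (-0.0034) after the 16 h fast, Ldhb (-0.061) on HFD, Ppp1r3g (0.0048) between fasting and HFD, and Hk1 (-0.025) and Ldha (-0.14) between studies. Without low columns, Ldha was -0.044 at 24 h and -0.011 between studies, and without mice 1423 and 1454 it was -0.018 at 24 h. With cage sums, Pygb was -0.0044 between fasting and HFD. None of these values passed the test.

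DESeq2 called 19 genes for 16 h fasting against chow, 5 for HFD against chow and 354 for fasting against HFD (190 higher and 164 lower, against 42 and 23). The last count was 26 without a filter and 0 with cage sums. With each mouse left out in turn it ranged from 0 (without fasted mouse 11) to 108 (without chow mouse 6), and the count between studies from 343 to 633, with 0 to 1 member. Log2 differences then ranged at 24 h from -0.040 to 0.055 for Ldha, after the 16 h fast from -0.090 to 0.0063 for Ldha and from -0.0078 to 0.048 for Pygb, on HFD from -0.021 to 0.032 for Ldhb, -0.031 to 0.085 for Pfkfb3 and -0.013 to 0.040 for Pygb, between fasting and HFD from -0.047 to 0.0098 for Hk1, -0.014 to 0.026 for Pygb, -0.016 to 0.031 for Gys1 and -0.19 to 0.014 for Ppp1r3g, and between studies from -0.0099 to 0.061 for Hk1, -0.0099 to 0.10 for Ldha and -0.018 to 0.13 for Ldhb. Ratios at 16 h ranged from -0.23 to -0.16 (Hk2 to Hk1) and 0.10 to 0.35 (Ppp1r3g to Ppp1r3c) for fasting, and from 0.077 to 0.21 (Ldha to Ldhb) and 0.19 to 0.31 (Ppp1r3g to Ppp1r3c) for HFD. The ratio of Ldha to Ldhb on HFD passed without mouse 14 (adjusted p = 0.0312), in a permutation test that takes cage mates as independent. Ppp1r3g had the lowest counts, from 151 to 698 per mouse.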

Other observations

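Single markers of cell types and areas changed at 24 h as follows, with 5.78% of all genes called higher and 5.62% lower. Of the astrocyte markers, the water channel Aqp4 fell by 0.85 on the log2 scale (SE 0.10, adjusted p = 1.34e-05 by edgeR) and the connexin Gja1 by 0.25 (SE 0.07, adjusted p = 0.0271), while the connexin Gjb6 rose by 0.70 (SE 0.11, adjusted p = 0.000198). Of the endothelial markers, the junction genes Cdh5 (-0.56, adjusted p = 0.000409) and Cldn5 (-0.52, adjusted p = 0.00699) and the receptor Flt1 (-0.27, adjusted p = 0.0348) fell. Of 5 mural cell markers, Acta2 (-0.72, adjusted p = 0.0333) and Rgs5 (-0.28, adjusted p = 0.0227) fell. The microglial genes that fell were P2ry12 (-0.64, adjusted p = 0.000691), Cx3cr1 (-0.64, adjusted p = 0.0274) and Tmem119 (-0.42, adjusted p = 0.0138). Agrp, the hunger peptide of the hypothalamus, rose by 0.70 (SE 0.22, adjusted p = 0.0388), and Mobp, of oligodendrocytes, by 0.52 (adjusted p = 0.0247), and the muscle gene Mylpf fell by 0.52 (adjusted p = 0.0196). Of 8 neuronal, 5 choroid plexus, 5 blood, 6 telencephalic and 6 midbrain and zona incerta markers, 0 were called. Their median log2 differences were, in that order, 0.09, 0.73, -0.12, 0.11 and -0.37 (all genes -0.004). The midbrain and zona incerta markers summed to 24.4 to 91.3 CPM on chow (median 53.9) and 24.2 to 65.9 CPM in the fasted mice (median 37.7). The part of the mix of areas in the differences was not tested. The fasting effect differed between 24 h and 16 h for Aqp4 (-0.66, adjusted p = 0.0134), P2ry12 (-0.70, adjusted p = 0.00953) and Cldn5 (-0.57, adjusted p = 0.0453).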
